A study of Rattus norvegicus with 6 samples.

Results

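Genes of sterol efflux, fatty acid uptake and lipid storage were examined in neonatal rat cardiac fibroblasts (NRCFs), which are primary cells cultured from newborn rat hearts. The 10 genes, Abca1, Abcg1, Nr1h3, Apoe, Ch25h, Lpl, Cd36, Plin2, Angptl4 and Pparg, were picked by their symbols for their known roles. Earlier results of these data were known when they were picked. All 10 were among the 21857 symbols counted, and all 10 were among the 12941 genes tested. Cells had received a pcDNA 3.1 plasmid with rat FTO, a demethylase that takes the m6A mark off RNA, or else pcDNA 3.1 alone (Vector). The question was which genes differ between cells with raised FTO and their controls. Each group had 3 libraries, whose genotype labels are FTO overexpression and WT. The strain is labelled Noway, whereas the design text names Sprague-Dawley pups taken within 3 days of birth. No treatment besides the transfection is given for these 6 libraries, and nothing says whether replicates came from separate cultures or litters. P-values therefore measure the spread between these libraries, which may be technical.

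The plasmid was meant to raise Fto, but its level was 87.8, 89.6 and 87.4 CPM (counts scaled to library size) in Vector and 93.2, 90.8 and 92.9 CPM in the other libraries. The fold ratio was 1.05 (95% confidence interval 0.976 to 1.12, edgeR adjusted p-value 0.239). A rise in Fto was not detected. The samples are therefore named by their label, as libraries labelled FTO, and each direction given is theirs relative to Vector. Libraries held 13178952 to 17857999 counts. Fibroblast genes were abundant in both groups, with means of 25809 and 8268 CPM for Col1a1, 17129 and 16464 CPM for Fn1, and 10699 and 3338 CPM for Col3a1. Of the 12 fibroblast markers 11 passed the test (edgeR adjusted p-value under 0.05), as did 65.9% of all tested genes. Of the markers that passed, 5 were higher and 6 lower. Among those higher, Dcn went from a mean of 47.0 to 5611 CPM and Pdgfra from 173 to 976 CPM. Genes of other cells were present too. The summed level of 19 macrophage markers was 1973 to 2035 CPM in Vector and 353 to 399 CPM in the libraries labelled FTO, and that of 12 cardiomyocyte markers was 1782 to 1821 CPM and 2853 to 2963 CPM. Fewer cells of a type and less RNA per cell cannot be told apart in bulk libraries.

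Cells dispose of surplus cholesterol by exporting it. The transporters Abca1 and Abcg1 pass cholesterol to lipoprotein particles, and Apoe is a lipid-carrying protein that accepts it. The liver X receptors (LXRs), Nr1h3 and its relative Nr1h2, sense oxysterols and switch these genes on together with an RXR partner. Fatty acids come in mainly from triglyceride cut by the lipase Lpl, which Angptl4 inhibits, and through the scavenger receptor Cd36. Plin2 coats the droplets in which lipid is stored, and the receptor Pparg drives many uptake and storage genes. Such genes are best known from macrophages, fat cells and liver, and fibroblasts use them as well.

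Upstream sequence of 3 members is shown because these genes moved by very different amounts and their windows held the motifs searched. The sequences are from RefSeq, build GRCr8, and end at the base before the annotated start site. The deposited counts rest on another build, rn6. Capitals mark an LXR-type direct repeat spaced by 4 bases (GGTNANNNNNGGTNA), a direct repeat spaced by 1 base as read by PPAR receptors (GGTNANNGGTNA), an E-box (CACGTG) or a TATA box (TATAAA), each searched on both strands.
Abca1, chr5:72596474-72596633, minus strand: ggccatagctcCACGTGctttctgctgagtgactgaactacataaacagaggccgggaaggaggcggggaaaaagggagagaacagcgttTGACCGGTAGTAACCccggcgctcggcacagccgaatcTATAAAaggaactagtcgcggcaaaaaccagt
Angptl4, chr7:15258682-15258781, minus strand: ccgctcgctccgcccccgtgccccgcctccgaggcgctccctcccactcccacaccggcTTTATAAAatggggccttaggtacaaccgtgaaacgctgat
Plin2, chr5:106229019-106229118, minus strand: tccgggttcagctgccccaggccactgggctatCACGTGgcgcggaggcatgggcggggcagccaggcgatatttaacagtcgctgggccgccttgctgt

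The table of promoters held 12 windows, from 250 bases before to 50 bases after the start site, for 8 of the 10 members. The repeat spaced by 4 was present in 1 of these windows, that of Abca1, on the opposite strand at bases -70 to -56, and in 0.675% of all 33469 windows. The repeat spaced by 1 was in 0 member windows and in 0.863% of all windows. The E-box was present for Abca1 (bases -149 to -144) and Plin2 (bases -67 to -62), and in 6.42% of all windows. The TATA box was in 4 member windows, among them those of Abca1 and Angptl4, and in 14.2% of all. In Angptl4 it was matched on both strands, as TTTATAAA holds the motif in each direction. For Cd36 (bases -175 to -170) and Pparg (bases 28 to 33, after the start site) the TATA box matched on the opposite strand only. A match describes the letters and not binding.

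In the quasi-likelihood test of edgeR, 9 of the 10 members passed (adjusted p-value under 0.05), and of these 5 were higher and 4 lower. Angptl4, Lpl, Ch25h, Nr1h3 and Plin2 rose. Pparg, Apoe, Abca1 and Abcg1 fell, while Cd36 did not pass. Of all tested genes 65.9% passed, made up of 33.2% of all tested genes that were higher and 32.8% that were lower. Most genes in these libraries thus differed. Each count of passed genes in a list or marker set is to be read against this 65.9%. The groups did not overlap in CPM in any of the 10 members, against 70.3% of all tested genes. Of the 10 members, 6 passed and differed by at least 2-fold, 3 in each direction, against 19.6% of all tested genes. The median log2 fold change was 0.26 over the members and 0.00 over all tested genes. As the members were chosen with earlier results of these data known, these shares are descriptive only.

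**Figure D1:**
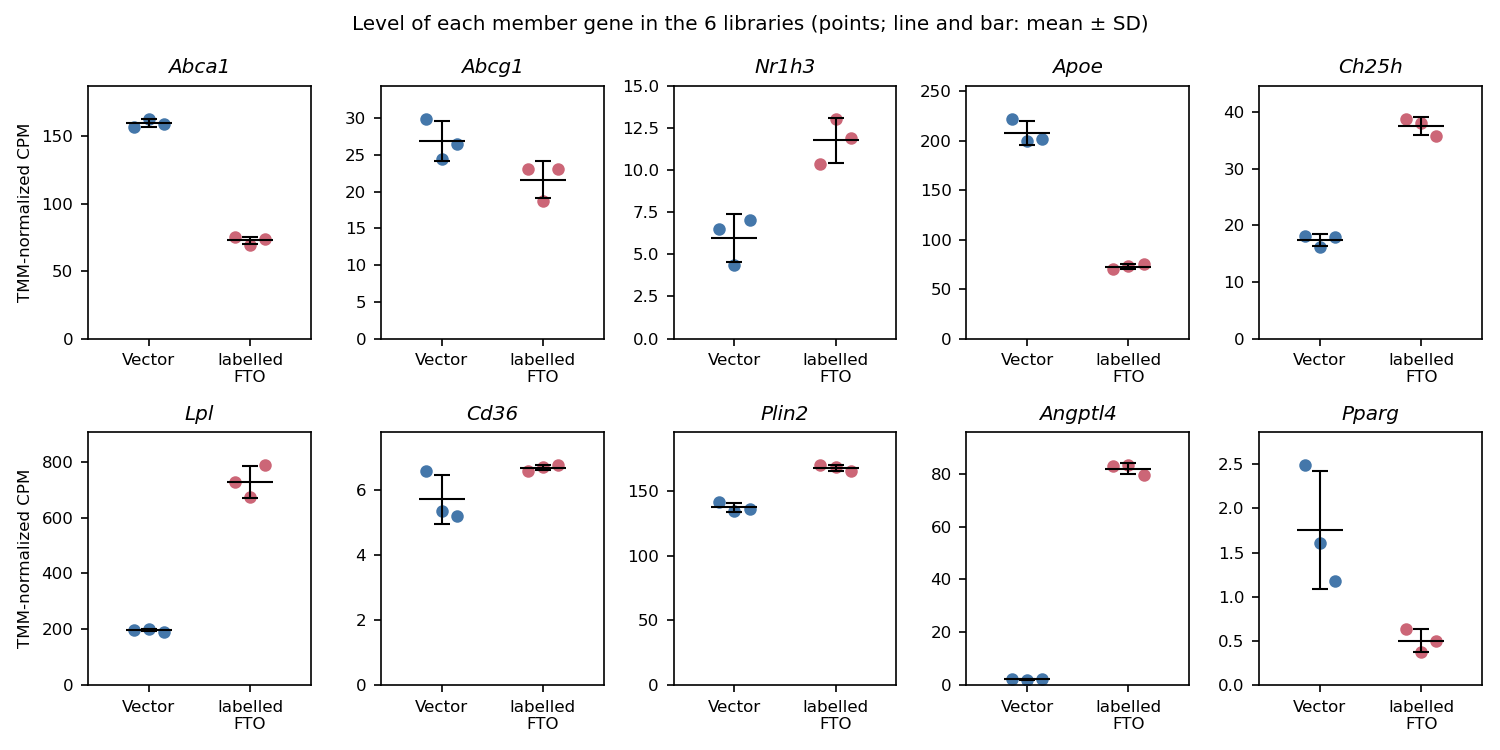
TMM-normalized CPM of each member in the 6 libraries, on linear axes that start at 0. Points are libraries, and the line with its bar is the mean ± SD of 3. Angptl4 moved from about the axis in Vector (2.12 CPM) to 82.0 CPM. For Cd36 the highest Vector point and the lowest FTO-labelled point lie almost level. For Abcg1 the lowest Vector point (24.5 CPM) lies only slightly above the highest FTO-labelled point (23.1 CPM).

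**Figure D2:**
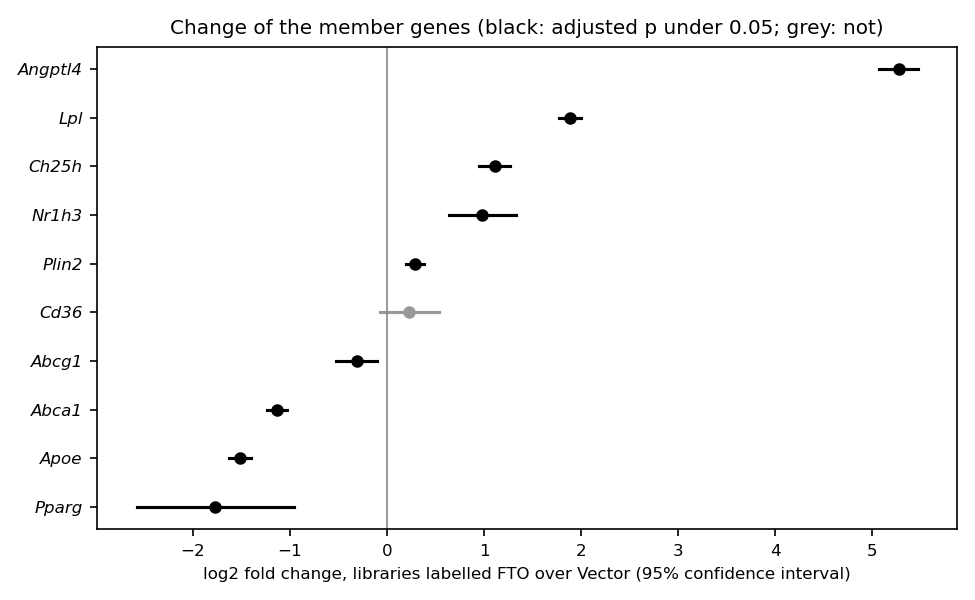
Fitted log2 fold change of each member, libraries labelled FTO over Vector, with its 95% confidence interval. The 9 members that passed are black, from Pparg at -1.77 to Angptl4 at 5.27, and Cd36 is grey with an interval that spans 0.

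Among the genes of sterol efflux, both transporters fell, but by unequal amounts. Abca1 was at 157, 163 and 159 CPM in Vector and at 75.1, 69.6 and 73.5 CPM in the libraries labelled FTO. The groups lay far apart, each being tight around its mean. The change was 2.20-fold lower (log2 fold change -1.13, SE 0.0477, edgeR adjusted p-value 1.07e-11). Abcg1 was at 29.9, 24.5 and 26.5 CPM in Vector and at 23.1, 18.7 and 23.1 CPM in the others. The lowest Vector library lay only slightly above the highest of the libraries labelled FTO. It fell by 0.31 on the log2 scale (SE 0.0983, edgeR adjusted p-value 0.0118). Without Vector replicate 1, the highest of its group, it was -0.23 with an adjusted p-value of 0.0721, and against a 1.2-fold change (glmTreat) the adjusted p-value was 0.249. No other member lost its call when a single library was left out.

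The within-library ratio of Abca1 to Abcg1 counts does not depend on how libraries are scaled. Its log2 value was 2.57 ± 0.172 in Vector and 1.76 ± 0.121 in the libraries labelled FTO (SD, n = 3 each), 1.76-fold lower. The groups did not overlap, and the two-sided exact permutation p-value was 0.1, the smallest that 3 against 3 libraries allow. The same p-value was found for each of the 3 ratios tested, so an adjusted value is 0.1 as well. All 3 ratios were chosen after the gene values were seen, so these p-values add no support to the gene tests.

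Apoe fell further than either transporter. It was at 222, 200.2 and 202 CPM in Vector and at 70.1, 73.0 and 75.2 CPM in the libraries labelled FTO. Every Vector library was well above every other. The change was 2.86-fold lower (log2 fold change -1.52, SE 0.0527, edgeR adjusted p-value 1.01e-12).

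Nr1h3, the receptor LXRα that induces the former 3 genes, moved the opposite way. Its level was 6.51, 4.36 and 7.06 CPM in Vector and 10.4, 13.1 and 12.0 CPM in the libraries labelled FTO, from a mean of 132 counts. All libraries labelled FTO were above all Vector libraries, although the spread was wide in both groups. The rise was 1.98-fold (log2 fold change 0.98, SE 0.160, edgeR adjusted p-value 6.51e-05). Nr1h2, the more widely expressed LXRβ, rose by 0.29 on the log2 scale (edgeR adjusted p-value 0.000497), but did not pass against a 1.2-fold change (glmTreat adjusted p-value 0.252). Their dimer partners fell, Rxra by 0.50 and Rxrb by 0.56 on the log2 scale, with edgeR adjusted p-values of 0.000101 and 2.23e-05.

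The wider list of the LXR axis and sterol efflux held 19 genes, of which 18 were counted and 15 tested. Of these, 14 passed (93.3%), 4 higher and 10 lower, against 65.9% of all tested genes. The median log2 fold change of the list was -0.50. Apart from the 4 members, 10 of 11 passed, 3 higher and 7 lower. Smpdl3a, a phosphodiesterase gene induced by LXR in macrophages, fell from 125 ± 1.24 to 48.0 ± 3.58 CPM (mean ± SD of 3 libraries, as for each value with an SD). Pltp, the phospholipid transfer protein, fell from 43.1 ± 0.615 to 17.2 ± 0.553 CPM, and Srebf1, a regulator of fatty acid synthesis, fell from 133 ± 2.51 to 69.1 ± 2.89 CPM. Apart from the members, these were the largest decreases among its well-counted genes. The largest increase, Scd, a fatty acid desaturase that LXR and SREBP factors also induce, was from 176 ± 1.36 to 271 ± 6.77 CPM. Lpcat3, which remodels membrane phospholipids, rose by 0.20 on the log2 scale and did not pass glmTreat (adjusted p-value 0.947). Scarb1, a receptor that exchanges cholesterol with HDL, was at 97.6 ± 4.72 and 102 ± 2.03 CPM and did not pass (edgeR adjusted p-value 0.234).

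Several of these genes are also strongly expressed by macrophages. Among the macrophage markers, 18 were tested and all 18 passed, 16 lower and 2 higher, with a median log2 fold change of -1.91. Of all tested genes 65.9% passed, 32.8% lower and 33.2% higher. Lyz2, lysozyme, fell from 1117 ± 22.8 to 97.6 ± 5.80 CPM, and Mrc1, the mannose receptor, from 195 ± 1.78 to 47.5 ± 1.93 CPM. C1qb and C1qc were at or under 3 counts in every library labelled FTO. Adgre1, which encodes F4/80, rose 4.65-fold and Fcgr3a 1.88-fold. The part of macrophage RNA in the decreases of Apoe, Abca1, Abcg1 and Pparg was not tested.

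Ch25h, Cyp27a1 and Cyp7b1, enzymes of oxysterol synthesis and breakdown, rose. Ch25h, which makes 25-hydroxycholesterol and is well known as an interferon-induced gene, was at 18.1, 16.2 and 17.9 CPM in Vector and at 38.8, 38.0 and 35.9 CPM in the libraries labelled FTO. The replicates of each group were close together and the groups clearly apart. The rise was 2.16-fold (log2 fold change 1.11, SE 0.0765, edgeR adjusted p-value 4.65e-09). Cyp7b1, the enzyme that breaks down 25- and 27-hydroxycholesterol, was at 5.78, 4.43 and 5.33 CPM in Vector and at 136, 146 and 118 CPM in the others. It rose 25.8-fold (log2 fold change 4.69, SE 0.105) with an edgeR adjusted p-value of 5.19e-15. Cyp27a1, which makes 27-hydroxycholesterol, rose 3.71-fold, from 11.2 ± 0.695 to 41.5 ± 2.22 CPM. Enzymes of both the making and the breakdown of oxysterols were thus higher. The log2 ratio of Cyp7b1 to Ch25h counts rose from -1.75 ± 0.115 to 1.83 ± 0.113 (SD, n = 3 each), by 3.58, with the same exact permutation p-value of 0.1.

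In the list of oxysterols and intracellular sterol handling, 17 of 18 genes were tested and 14 passed, 7 in each direction, with a median log2 fold change of -0.05. Besides Ch25h, Cyp7b1 and Cyp27a1, Stard5, a cytosolic sterol-binding protein, rose 1.84-fold. Star, which brings cholesterol into mitochondria, rose by 3.32 on the log2 scale from 1.18 ± 0.323 to 11.9 ± 2.09 CPM, at a mean of 99 counts, and was singled out after its value was seen. Among the genes that fell, Gramd1b, which moves cholesterol from the plasma membrane to the endoplasmic reticulum, fell by 0.90 on the log2 scale, the cholesteryl ester hydrolase Nceh1 by 0.66, and Osbp, an oxysterol-binding exchanger, by 0.44. Under glmTreat against a 1.2-fold change, 9 genes of this list passed in place of 14.

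Lpl and its inhibitor Angptl4 had the largest rises among the 10 members. Lpl was at 198, 201 and 192 CPM in Vector and at 726, 673 and 787 CPM in the libraries labelled FTO. The lowest library labelled FTO was far above the highest Vector library. The rise was 3.70-fold (log2 fold change 1.89, SE 0.0537, edgeR adjusted p-value 8.95e-14). Angptl4, whose product unfolds and inactivates the lipase, was close to silent in Vector, with 29, 28 and 34 counts or 2.12, 1.88 and 2.35 CPM. It reached 1185, 1102 and 1425 counts, or 83.1, 83.2 and 79.6 CPM, in the libraries labelled FTO. Replicates of either group hardly differed. The rise was 38.6-fold with a 95% confidence interval of 33.6 to 44.3 (log2 fold change 5.27, SE 0.0934, edgeR adjusted p-value 3.31e-16). By fitted log2 fold change it was at rank 122 from the top among the 12941 genes tested.

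The lipase and its inhibitor therefore rose by unequal amounts. The log2 ratio of Angptl4 to Lpl counts was -6.54 ± 0.197 in Vector and -3.15 ± 0.146 in the libraries labelled FTO (SD, n = 3 each), 10.5-fold higher. The groups did not overlap, and the exact permutation p-value was again 0.1, the smallest possible here. The levels of Angptl4 and Lpl are not compared with each other, since transcript lengths were not used, and only the change of the ratio is read. Gpihbp1, which anchors the lipase on capillary endothelium, was listed at 0 in every library. Lmf1, needed for folding of the lipase, was at a mean of 20.6 and 21.8 CPM (edgeR adjusted p-value 0.486).

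Cd36, the fatty acid translocase and scavenger receptor, was the exception among the members. It was at 6.58, 5.37 and 5.19 CPM in Vector and at 6.59, 6.72 and 6.76 CPM in the libraries labelled FTO, from 75 to 121 counts. Vector replicate 1 lay just under the lowest library labelled FTO, so the lack of overlap was by a narrow margin. The fold ratio was 1.17, with a 95% confidence interval of 0.951 to 1.45 and an edgeR adjusted p-value of 0.164. A change of the size seen for Ch25h lies outside this interval, whereas one of the size seen for Plin2 lies within it. Over its 14 alternatives the adjusted p-value of Cd36 ran from 0.0725 to 0.543.

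Other receptors for lipoproteins and modified lipids moved in both directions. Vldlr, a receptor for triglyceride-rich particles, was at 468, 467 and 452 CPM in Vector and at 45.7, 40.3 and 42.3 CPM in the libraries labelled FTO. It fell 10.8-fold (log2 fold change -3.43, SE 0.0515) with an edgeR adjusted p-value of 4.87e-17. Olr1, the receptor LOX-1 for oxidized LDL, rose 4.71-fold from 135 ± 3.06 to 638 ± 14.2 CPM. Msr1, the macrophage scavenger receptor, fell 2.70-fold from 107 ± 2.62 to 39.6 ± 1.18 CPM. The scavenger and lipoprotein receptors thus did not share a direction.

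Of the 24 genes in the list of the lipase system and fatty acid uptake, 22 were tested and 17 passed, 10 higher and 7 lower, with a median of 0.15 on the log2 scale. Without the 3 members, 15 of 19 passed, 8 higher and 7 lower, and the median was 0.00. Lipg, endothelial lipase, rose 3.98-fold from 4.10 ± 0.337 to 16.3 ± 1.98 CPM. Acsl1, which activates fatty acids to acyl-CoA, rose 2.61-fold from 30.9 ± 1.06 to 80.6 ± 2.86 CPM. Its relative Acsl3, which acts in droplet formation, fell 1.90-fold from 100.1 ± 4.10 to 52.7 ± 0.0576 CPM.

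Plin2 changed little. It was at 141, 134 and 136 CPM in Vector and at 169.6, 168 and 165 CPM in the libraries labelled FTO. The groups were tight and did not overlap. The rise was 1.22-fold (log2 fold change 0.29, SE 0.0430, edgeR adjusted p-value 2.55e-05). Against a 1.2-fold change (glmTreat) it did not pass, with an adjusted p-value of 0.198.

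Several other droplet genes moved more than Plin2. Of 26 genes in the list of droplet storage and lipolysis, 20 were tested and 15 passed, 11 higher and 4 lower, with a median of 0.27 on the log2 scale. G0s2, an inhibitor of the lipase Pnpla2, was at 4.32, 3.35 and 3.60 CPM in Vector and at 32.5, 25.0 and 34.2 CPM in the libraries labelled FTO. It rose 8.19-fold with an edgeR adjusted p-value of 5.1e-11. Dgat2, which makes triglyceride, rose 2.59-fold from 12.6 ± 1.65 to 32.6 ± 0.650 CPM, and Gpat3, which acts at the first step of that pathway, rose 2.10-fold. On the other side were Plin4, a further droplet coat protein, at 3.76-fold lower, the phosphatidate phosphatase Lpin2 at 2.17-fold lower, and Lipe, hormone-sensitive lipase, at 1.52-fold lower. Pnpla2 itself was listed at 0 in every library, as were 4691 of the 21857 symbols. For Pnpla2, as for Gpihbp1, a silent gene and a gene missed by the counting cannot be told apart. Plin1, the coat protein of fat cells, and Plin5 did not exceed 3 counts in any library.

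Pparg, the receptor that directs fat cell formation, was the least counted member, with 34, 24 and 17 counts in Vector and 9, 5 and 9 counts in the libraries labelled FTO. These are 2.49, 1.61 and 1.18 CPM against 0.631, 0.378 and 0.503 CPM. The Vector libraries were spread widely, and the lowest still lay above the highest of the others. The change was 3.41-fold lower, but its 95% confidence interval on the log2 scale was wide, from -2.58 to -0.96. The edgeR adjusted p-value was 0.000766. Ppard, the more widely expressed family member, fell by 0.39 on the log2 scale from 50.9 ± 1.62 to 39.0 ± 2.99 CPM. Ppara, the receptor for fatty acid oxidation, was at 2.13 ± 0.388 and 2.61 ± 0.245 CPM (edgeR adjusted p-value 0.252).

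PPAR target genes did not follow a common direction. In the list of PPAR receptors, partners and targets, 25 of 28 genes were tested and 16 passed, 6 higher and 10 lower, with a median of -0.24. Without the 5 members on it, 12 of 20 passed, 3 higher and 9 lower. So 60% of these passed, against 65.9% of all tested genes. Angptl4 and Lpl were the largest increases on this list, although both of the PPAR receptors that passed were lower. Among the other targets, Cpt1b, which brings fatty acids into muscle mitochondria, rose by 0.74 on the log2 scale, and the acyl-CoA dehydrogenases Acadvl and Acadl rose by 0.32 and 0.19, neither passing glmTreat (adjusted p-values 0.101 and 0.882). Hadhb, of the mitochondrial trifunctional protein, fell by 0.77 and the carrier Ucp2 by 0.52.

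Fat cell markers were few. Adipoq, Plin1 and Adig did not exceed 3 counts in any library. Of the 10 markers 6 were tested and 5 passed, 2 higher and 3 lower. Their summed level was 26.1 to 29.1 CPM in Vector and 24.3 to 26.4 CPM in the libraries labelled FTO, mostly from Fabp4, a fatty acid carrier that fell by 0.45 on the log2 scale, and Lipe. Retn, resistin, the next most abundant, was at or under 3 counts in all Vector libraries and reached 5.00 ± 0.873 CPM, at least 22.8-fold higher.

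**Figure D3:**
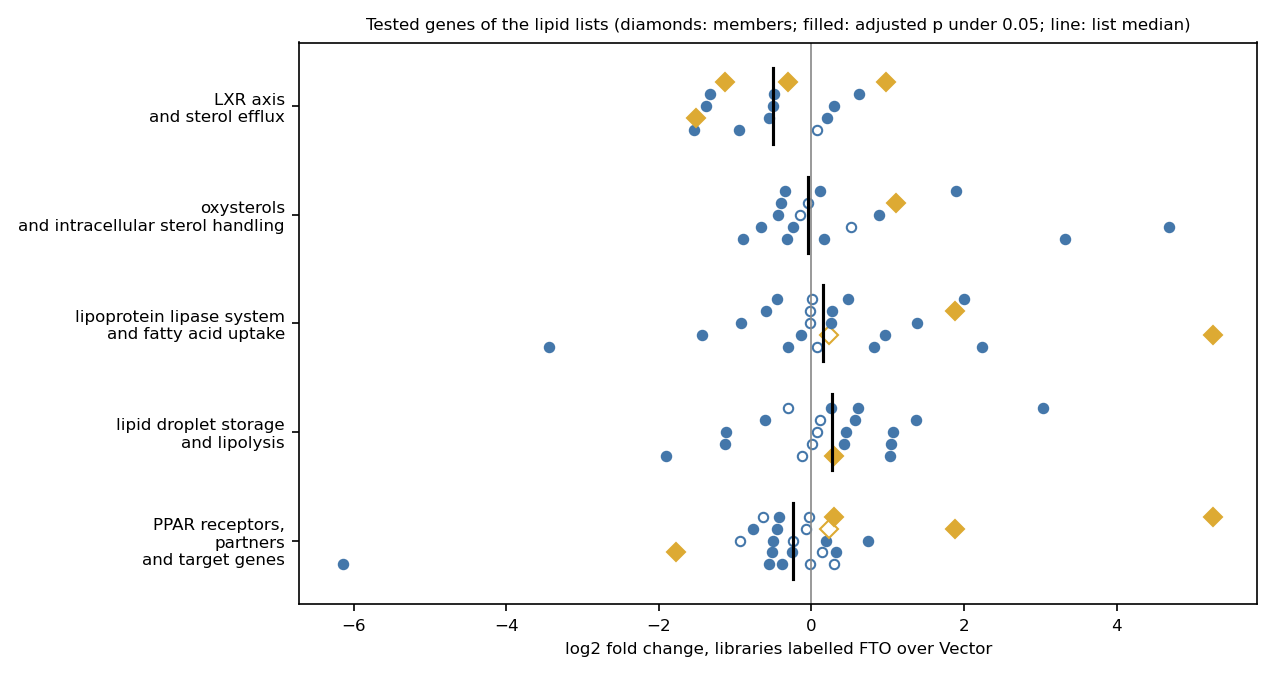
Log2 fold change of the tested genes of the 5 wider lists, libraries labelled FTO over Vector. Diamonds are members, filled symbols mark an edgeR adjusted p-value under 0.05, and vertical lines are list medians, from -0.50 for the LXR axis to 0.27 for droplet storage. Genes on several lists are drawn in each.

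**Figure D4:**
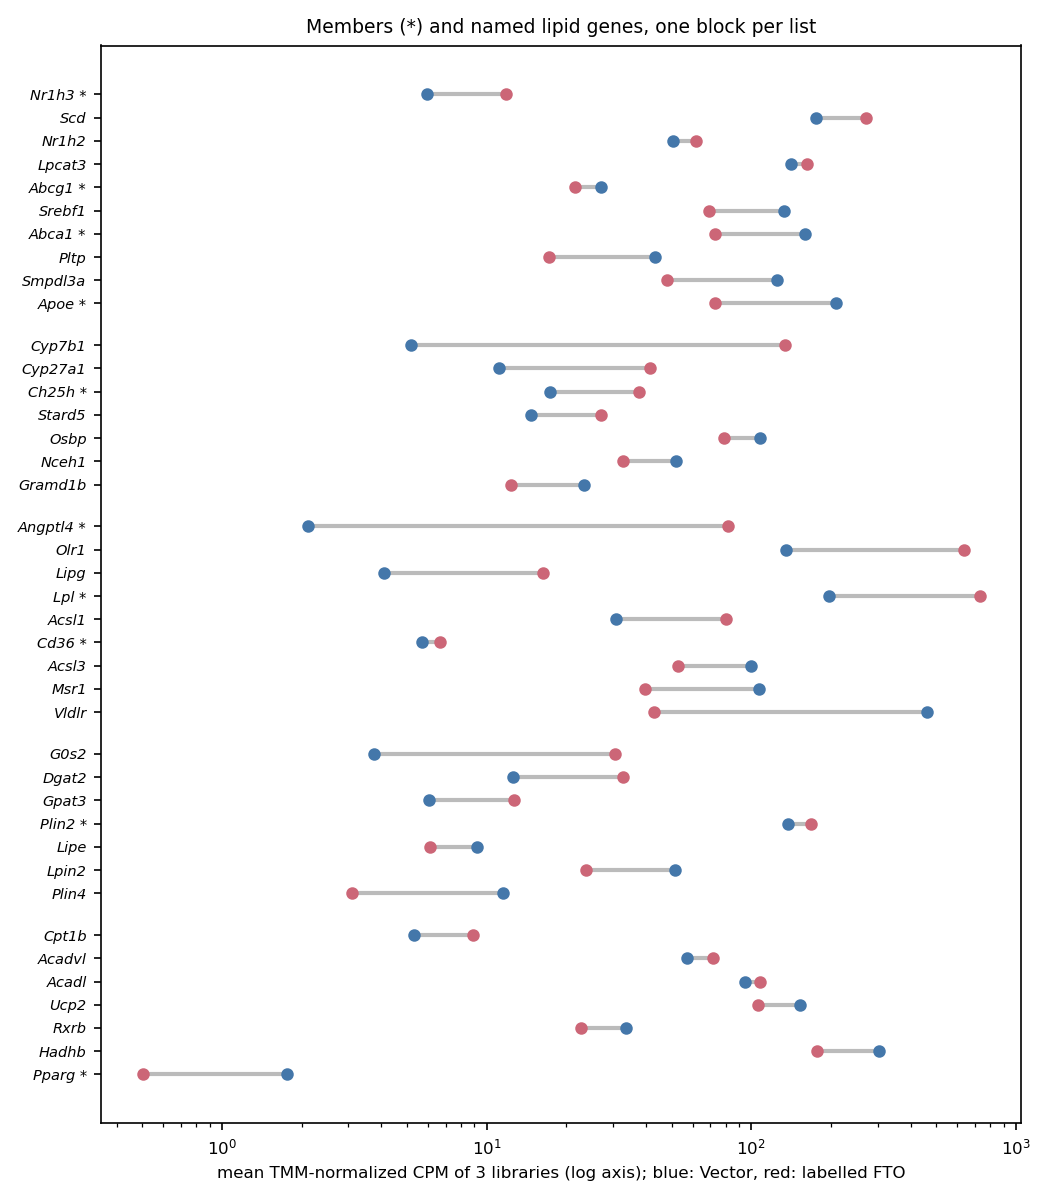
Mean TMM-normalized CPM of 3 libraries in Vector (blue) and in the libraries labelled FTO (red), on a log axis, for the members (starred) and the largest well-counted changes of each list. The order of the 5 blocks is LXR axis, oxysterols, lipase system and uptake, droplet storage, and PPAR genes, and each gene is drawn once. The longest lines are those of Angptl4, Cyp7b1 and Vldlr.

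Over the 5 lists together, 82 genes besides the members were tested and 61 passed, 30 higher and 31 lower. This is 74.4%, against 65.9% of all tested genes. The median log2 fold change was -0.02. The lists too were chosen with earlier results of these data known, so the 74.4% is descriptive only.

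To see which of the lipid genes shared the pattern of each member, log2 CPM was taken relative to the Vector mean of each gene. The root mean square difference over the 6 libraries was then computed against 91 other genes. Lpl was closest to Cyp27a1 (0.0716), Abca1 to Lpin2 (0.0772) and Apoe to Msr1 (0.0907). For Cd36 the nearest gene was Lpcat3 (0.0849), and for Abcg1 it was Hilpda (0.0955). Ch25h was nearest to Acsl4 (0.137) and Nr1h3 to Ch25h (0.216). Angptl4 and Pparg had no close neighbour on the lists, the nearest being Cyp7b1 at 0.430 and Apoe at 0.399. With only 2 groups this measure mainly compares the size of the change.

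Genes of other cells with values beside these results were heart muscle and endothelial genes. Among 12 cardiomyocyte markers 11 passed, 10 higher and 1 lower. Tnnt2, a troponin subunit, fell from a mean of 769.8 to 648.7 CPM, while the natriuretic peptide Nppa rose from 271 ± 4.97 to 658 ± 53.3 CPM and Actc1, cardiac actin, from 259 ± 7.97 to 537 ± 30.8 CPM. Heart muscle is rich in Lpl, and the part of these cells in its rise was not tested. Of 10 endothelial markers 8 were tested and 7 passed, 4 higher and 3 lower, with summed levels of 131 to 137 CPM and 123 to 127 CPM. Flt1 was the most abundant, at 94.3 ± 2.12 and 63.5 ± 3.82 CPM, followed by Tek at 11.5 ± 0.552 and 25.8 ± 0.370 CPM and Egfl7 at 5.28 ± 0.0502 and 10.3 ± 2.13 CPM.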

How the data were processed

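RNA-seq of 6 NRCF libraries was used. The authors deposited raw counts, whole numbers per gene symbol, in 1 file per library. The submitters' processing notes name Trimmomatic and build rn6. The aligner, counter, annotation and use of strand are not given in the sources used here, so counts of close paralogs (Scd with its relatives, the Fcgr genes) and of overlapping genes are uncertain. Transcript lengths were not used, so the order of markers by abundance and their summed levels rest on CPM not corrected for length.

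Groups were taken from the genotype labels. The members, gene lists, motifs and alternatives were chosen with earlier results of these data known, and ratios after values were seen. Genes were kept by filterByExpr of edgeR 4.0.16 (minimum count 10), which held 99.9% of counts, and were scaled by TMM (factors 0.995 to 1.005) in R 4.3.3. The two-sided quasi-likelihood test (glmQLFit, glmQLFTest) had no covariate, and p-values were adjusted by Benjamini-Hochberg over all 12941 genes. SE came from the F statistic. CPM is TMM-normalized, mean ± SD of 3 libraries. A floor of 3 counts was 0.168 to 0.227 CPM, and folds against a group at or under it are lower bounds. Intervals and floors cover counting error and library spread only. The study gives a threshold (log2 fold change of at least 1, p-value under 0.05) but no test.

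Genes named were the 10 members, Fto, 8 regulators and receptors fixed by name, the 3 largest called increases and decreases of each list (no overlap, mean of at least 100 counts), the 3 most abundant markers of each cell type, and the closest pattern of each member. A few others were chosen with their values in view. The results of some genes under this rule are not reported here. Replicates were separate libraries (chi-square per degree of freedom of within-group pairs 1.58 to 8.38). On simulated counts, 185 of 197 genes changed 2-fold among 12818 tested were recovered, and 16 unchanged genes were called. With so few genes changed, this does not test the scaling or error rate where 65.9% of genes pass, as in the data. Alternatives were DESeq2 1.42.0, limma-voom (limma 3.58.1), DESeq2 size factors, library size alone, no filter, a mean of at least 10 counts, a term for replicate number, a test against a 1.2-fold change (glmTreat), and leaving out each library.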

Additional observations from a re-analysis of the deposited data

How the results depend on the processing

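The direction of each of the 48 single genes followed, the 10 members and Fto among them, was the same in all 14 alternatives. Calls were lost 8 times and gained 1 time, in 8 genes. Against a 1.2-fold change (glmTreat), Abcg1 (-0.31) and Plin2 (0.29) no longer passed, the oxysterol list had 9 called genes in place of 14, and 5668 of all genes passed the adjusted threshold in place of 8531, as a test against a larger change would give. At the study's threshold the count was 2539 in both tests. The estimates of Abcg1 across the fits without a single library ran from -0.38 to -0.23, and it failed without Vector replicate 1. With the low-count filter dropped, 3191 passed the study's threshold. The number of members called was 8 to 9 without a single library and 9 with DESeq2, limma-voom and each scaling. No pairing by replicate number was seen. Deviations of same-numbered libraries correlated at 0.00628, -0.0869 and 0.0440 and those of others from -0.131 to 0.122. With 3 libraries per group, this cannot exclude that same-numbered libraries shared a culture or litter. With the replicate block 9 members and 8399 of all genes passed. Depth limits Pparg, whose log2 fold change ran from -1.99 to -1.45, and Cd36, with 75 to 121 counts.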
